A study of Komagataella pastoris with 4 samples.

Results

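The genes described here are those whose product name in the deposited count table refers to peroxisomes, to a peroxin or to a numbered PEX protein, apart from carnitine enzymes and catalase. Of the 5427 rows of the table, 31 met this rule, and all 31 were among the 5420 rows kept after a filter on low counts. Most were peroxins or other proteins of the peroxisomal membrane, but 4 were described as enzymes or enzyme-like proteins of the organelle and 2 as transcriptional regulators of its proliferation. Peroxins that carry another description in the table are not covered, and where 2 members have the same description they are told apart by their row identifiers.

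Peroxisomes are single-membrane organelles. In methylotrophic yeasts such as Pichia pastoris they hold alcohol oxidase, dihydroxyacetone synthase and catalase, and they enlarge and multiply when methanol is the carbon source. Matrix proteins are made in the cytosol and bound by receptors that recognise a peroxisomal targeting signal, the receptors dock at the membrane and release their cargo inside, and a membrane-bound set of RING-finger ubiquitin ligases then marks them for return to the cytosol. Other peroxins insert membrane proteins, shape and divide the organelle, or keep it in place when the cell buds.

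RNA was sequenced from 4 strains after 14 h on methanol in minimal medium, with 1 library per strain. The deletion strains are Dmxr1, labelled as lacking the zinc-finger activator Mxr1 of methanol genes, Dgal83, which lacks the Snf1 kinase beta-subunit Gal83, and Dgcn5, which lacks the histone acetyltransferase Gcn5, and the wild type is their parent GS115. The labels describe all 4 strains as histidine auxotrophs, and give Zeocin resistance for the 3 deletion strains and none for the parent. No clone, culture or day is named, and with 1 library each no difference below has a replicate check, no test was possible and no p-value is given. In RNA from a whole culture, a lower level in every cell and a smaller share of cells with a high level cannot be told apart.

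Total counts were 34646983 in the Dmxr1, 30582006 in the Dgal83, 30741258 in the Dgcn5 and 48539082 in the wild-type library. The row described as the histone acetyltransferase of H2B and H3 (gene3103) had 3 counts in the Dgcn5 library and 1840 to 3060 in the other deletion libraries and the wild type. The row described as a possible Snf1 beta-subunit (gene1360) had 8 counts in the Dgal83 library and 2263 to 5215 in the others. No row was described as Mxr1, so that label was not checked, and each direction given for Dmxr1 rests on it.

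Levels below are CPM, counts divided by a library size in units of 1e+06 reads. Library sizes were corrected for differences in composition with TMM factors (trimmed mean of M-values). The table gives no transcript lengths, so a level is compared between libraries and not between genes. Ratios are log2 ratios to the wild type, and brackets hold the exact 95% interval, which covers counting error only. A gene is called higher or lower where the difference reached 2-fold or more and the interval left out equality. Member counts ran from 211 to 154296 over the 4 libraries, and the median width of the members' intervals was 0.12 log2 units for the Dmxr1, 0.11 for the Dgal83 and 0.13 for the Dgcn5 library.

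By the number of genes called at 2-fold and by their median ratio, the peroxisome genes were lowest in the Dgcn5 library. There 13 of the 31 were called lower and 0 higher, where 5.04% and 4.06% of all rows were called lower and higher. Their median log2 ratio was -0.87, beside -0.01 for all rows, and 25 of the 31 lay below equality. In the Dmxr1 library 11 were called lower and 0 higher, where 10.3% and 7.97% of all rows were, and the median was -0.50 beside -0.01. In the Dgal83 library 7 were called lower and 1 higher, with a background of 10.7% and 11.0%, and the median was -0.18 beside 0.01. A scaling factor adds the same amount to each log2 ratio. The difference between the members' median and that of all rows therefore cannot move with the scaling, and its constancy is no check. This difference was -0.86 in the Dgcn5, -0.49 in the Dmxr1 and -0.19 in the Dgal83 comparison. All 3 comparisons share the 1 wild-type library. Set directly over the Dgcn5 library, the Dmxr1 library had a member median of only 0.10, with 17 members above equality and 14 below. The shares of all rows given here are also the background for the counts by role and by list below.

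**Figure D1:**
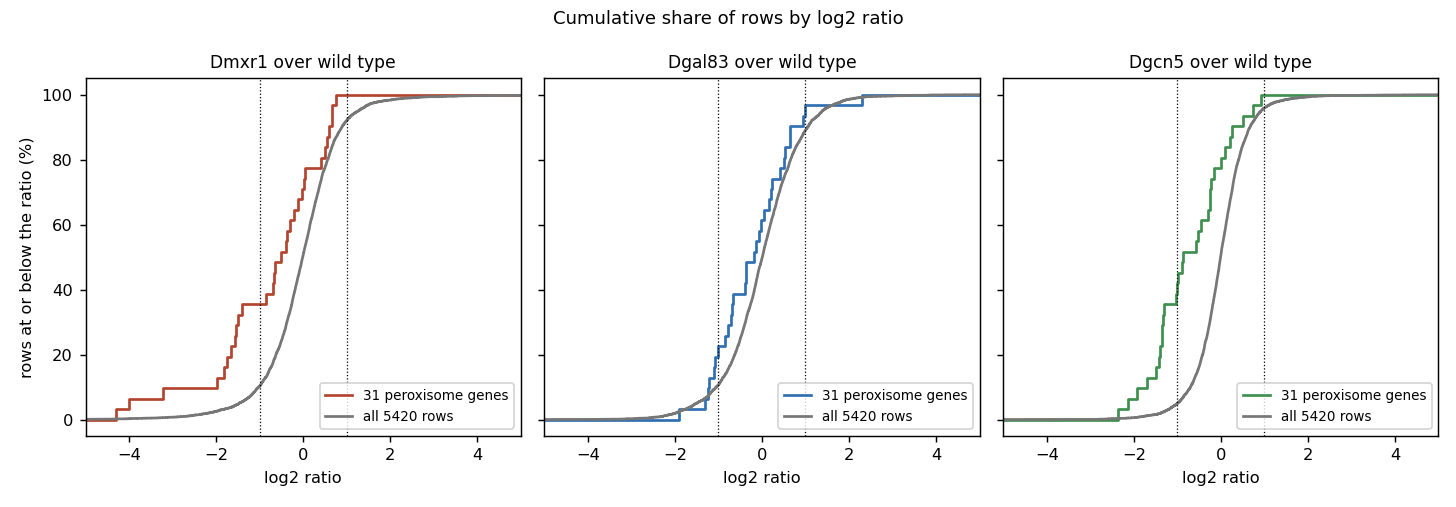
Cumulative share of rows (%) at or below each log2 ratio to the wild type, 1 panel per deletion-strain library, with the 31 peroxisome genes in colour and all 5420 kept rows in grey. Dotted lines mark 2-fold. The coloured curve lies left of the grey one over most of its range in the Dgcn5 and Dmxr1 panels and close to it in the Dgal83 panel.

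By the sum of their levels the members were lowest in the Dmxr1 library. They held 3682 scaled CPM in the Dmxr1, 6731 in the Dgal83 and 5509 in the Dgcn5 library, against 10705 in the wild type. As a plain share of all counts they made up 0.317% in the Dmxr1, 0.812% in the Dgal83 and 0.481% in the Dgcn5 library, against 1.18% in the wild type. This sum rests partly on 1 gene, peroxisomal membrane associated protein 20. Without it the sums were 3502, 5958 and 4375 scaled CPM in the deletion strains in the same order, against 7816 in the wild type, so the wild type was still the highest of the 4 libraries. In these sums the nudix pyrophosphatase (gene3725) made up 35.4, 1337 and 1324 CPM, against 698 in the wild type. With both genes left out, the Dgcn5 library and not the Dmxr1 library had the lowest sum.

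**Figure D2:**
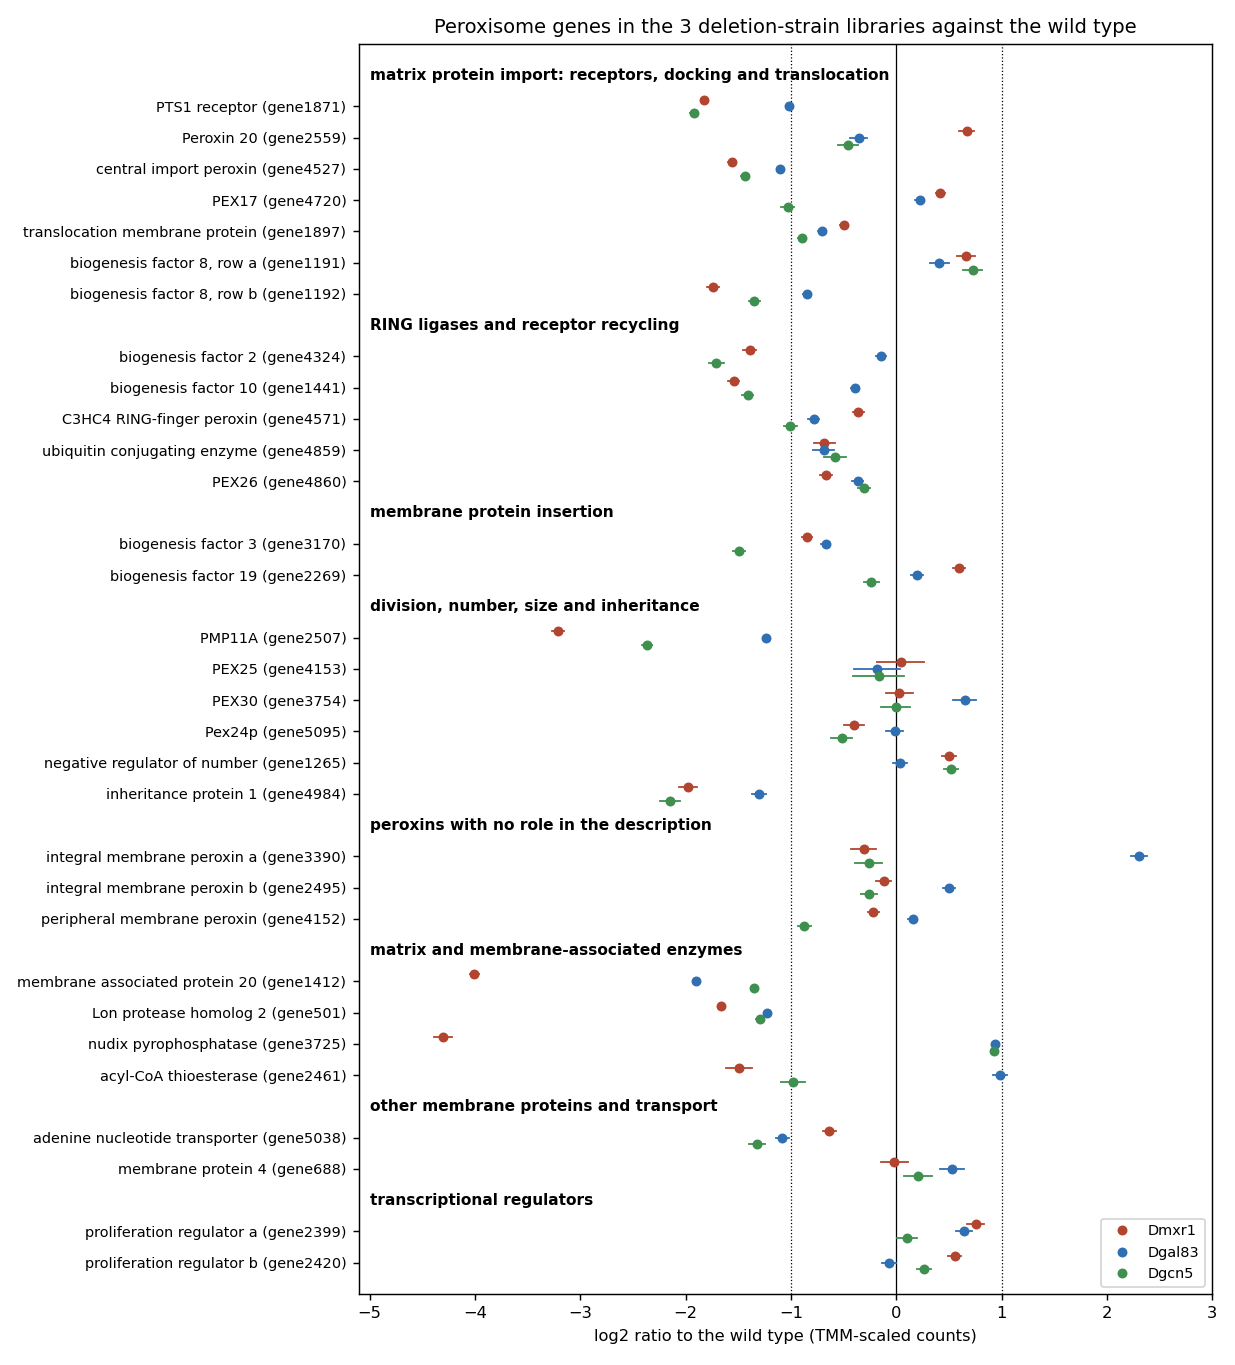
log2 ratio to the wild type of each of the 31 peroxisome genes (rows, grouped by the role their description gives), with points for the 3 deletion-strain libraries and lines for exact 95% counting intervals. Dotted lines mark 2-fold. Within several roles some genes lie far below equality and others near it or above.

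Import of matrix proteins was represented by 7 rows. Of these 4 were called lower in the Dgcn5 library, 3 in the Dmxr1 and 2 in the Dgal83 library, and none was called higher in any; with total counts 0 were called lower in the Dgal83 library. The receptor for peroxisomal targeting signal 1 (gene1871), which binds the C-terminal signal of most matrix proteins, had 367 CPM in the Dmxr1, 642 in the Dgal83 and 343 in the Dgcn5 library, against 1301 in the wild type. The log2 ratios were -1.83 [-1.85 to -1.80], -1.02 [-1.04 to -1.0] and -1.92 [-1.96 to -1.89] in that order. All 3 deletion strains were below the wild type, and the Dgal83 library lay between the other deletion strains and the parent.

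The membrane peroxin described as a central component of the import machinery (gene4527) had 226 CPM in the Dmxr1, 312 in the Dgal83 and 247 in the Dgcn5 library, against 668 in the wild type, with log2 ratios of -1.56, -1.10 and -1.43. This gene met a stricter description, in which 1 library lies 2-fold or more away from all the rest and the other 3 are within 1.5-fold of each other: the wild type was the library that stood apart, on the high side. Of all rows 0.277% stood apart in that way.

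PEX17 (gene4720), a partner in the docking complex of yeasts, showed another pattern. It had 259 CPM in the Dmxr1, 226 in the Dgal83 and 94.8 in the Dgcn5 library, against 194 in the wild type. Here the Dgcn5 library alone was low, with a log2 ratio of -1.03 [-1.10 to -0.97], and it stood apart from the other 3, as 0.221% of all rows did. The Dmxr1 and Dgal83 libraries were at 0.42 and 0.22. The ratio lies just past the 2-fold line, and its interval reaches across that line.

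The integral membrane protein described as required for translocation of matrix proteins (gene1897) had 301, 261 and 229 CPM in the Dmxr1, Dgal83 and Dgcn5 libraries, against 425 in the wild type. All its ratios were below equality and short of 2-fold, between log2 -0.89 and -0.50. Peroxin 20 (gene2559), which in yeasts such as Pichia acts with the receptor of the second targeting signal, had 109.8 CPM in the Dmxr1, 54.0 in the Dgal83 and 50.3 in the Dgcn5 library, against 69.2 in the wild type. The Dmxr1 library was the highest of the 4 for this gene, at log2 0.67, while the other deletion libraries were at -0.36 and -0.46, and none of these ratios reached 2-fold.

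Peroxisomal biogenesis factor 8 links the docking and the RING-finger complexes from inside the organelle. The table has it as neighbouring rows with separate protein accessions, and they went opposite ways. The more abundant row (gene1192) had 107 CPM in the Dmxr1, 198 in the Dgal83 and 140 in the Dgcn5 library, against 356 in the wild type, with log2 ratios of -1.74, -0.85 and -1.35. The other row (gene1191) had 64.9, 54.5 and 67.9 CPM in the same libraries, against 41.0 in the wild type, with log2 ratios of 0.66, 0.41 and 0.73. For gene1192 every deletion library was below the wild type, and for gene1191 every one was above it, though short of 2-fold. Whether the rows are parts of 1 gene or separate genes cannot be read from the table, so neither can stand for the whole.

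The RING-finger ligases and the receptor recycling proteins made up 5 rows. All 5 were below the wild type in each deletion library; 3 were called lower in the Dgcn5, 2 in the Dmxr1 and 0 in the Dgal83 library. Scaling by total counts left 3 in the Dgcn5 and 0 in the Dgal83 library and gave 4 in the Dmxr1 library. Biogenesis factor 2 (gene4324), a RING-finger ligase subunit, had 77.1 CPM in the Dmxr1, 183 in the Dgal83 and 62.0 in the Dgcn5 library, against 203 in the wild type. This gave log2 ratios of -1.39 [-1.46 to -1.33], -0.15 [-0.19 to -0.10] and -1.71 [-1.78 to -1.63]. Thus the Dgal83 library was near the wild type and the other deletion libraries were well below both.

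Biogenesis factor 10 (gene1441), another RING-finger ligase subunit, was likewise lower in the Dmxr1 and Dgcn5 libraries than in the Dgal83 library and the wild type. It had 110.5 CPM in the Dmxr1, 245 in the Dgal83 and 121 in the Dgcn5 library, against 322 in the wild type, and its log2 ratios were -1.54, -0.40 and -1.41. The C3HC4-type RING-finger peroxin (gene4571) differed from both. It had 155 CPM in the Dmxr1, 115 in the Dgal83 and 99.1 in the Dgcn5 library, against 199 in the wild type. Its ratio was -1.01 [-1.07 to -0.94] in the Dgcn5 library, close to the 2-fold line, and -0.36 and -0.78 in the Dmxr1 and Dgal83 libraries.

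The peroxisomal ubiquitin conjugating enzyme (gene4859), which acts with the RING ligases on the receptor, and PEX26 (gene4860), which in mammals anchors the ATPases that extract the receptor, are neighbouring rows. Both were below the wild type in every deletion library without being called with TMM, at log2 -0.69 to -0.58 for gene4859 and -0.67 to -0.31 for gene4860. With total counts both were called lower in the Dmxr1 library, at -1.03 and -1.02.

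Insertion of membrane proteins was represented by both of its central factors. Biogenesis factor 3 (gene3170), the membrane anchor at which new membrane proteins arrive, had 153 CPM in the Dmxr1, 174 in the Dgal83 and 98.2 in the Dgcn5 library, against 276 in the wild type. Its log2 ratio was -1.49 [-1.55 to -1.43] in the Dgcn5 library, where it was called lower, and -0.85 and -0.67 in the Dmxr1 and Dgal83 libraries, where it was not. With total counts it was also called lower in the Dmxr1 library, at -1.20. The rows on either side of it in the table had ratios of -1.37 (gene3169) and -1.0 (gene3171) in the Dgcn5 library, and the part of shared reads in this was not tested. Biogenesis factor 19 (gene2269), the soluble carrier that brings membrane proteins to factor 3, did not share this pattern. It had 164 CPM in the Dmxr1, 125 in the Dgal83 and 92.1 in the Dgcn5 library, against 109 in the wild type, all within 2-fold of it.

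Division, number and inheritance took in 6 rows, and 2 were called lower and 0 higher in each deletion library. Peroxisomal membrane protein 11A (PMP11A, gene2507), of the family that elongates the membrane before division, had 90.2 CPM in the Dmxr1, 355 in the Dgal83 and 162 in the Dgcn5 library, against 837 in the wild type. Its log2 ratios were -3.21 [-3.27 to -3.16], -1.24 [-1.27 to -1.21] and -2.37 [-2.41 to -2.32], the largest decrease of any member in the Dgcn5 library. Inheritance of peroxisomes protein 1 (gene4984), which in Saccharomyces cerevisiae tethers peroxisomes in the mother cell, had 43.7 CPM in the Dmxr1, 69.9 in the Dgal83 and 38.9 in the Dgcn5 library, against 172 in the wild type. It was 3.94-fold, 2.47-fold and 4.42-fold lower in that order. For both genes the deletion strains all lay below the parent, with the Dgal83 library the nearest to it.

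The other 4 rows of this role were near the wild type. PEX25 (gene4153), which takes part in membrane elongation in Saccharomyces cerevisiae, had 7.78 to 9.07 CPM over the 4 libraries, and each of its intervals included equality. PEX30 (gene3754) and Pex24p (gene5095), membrane peroxins that control peroxisome size and number in yeasts, lay between log2 -0.01 and 0.65 and between -0.52 and -0.02. The integral membrane protein described as a negative regulator of peroxisome number (gene1265) was on the other side, with 121 CPM in the Dmxr1, 87.2 in the Dgal83 and 122 in the Dgcn5 library, against 85.1 in the wild type. Its log2 ratios were 0.50, 0.04 and 0.52, short of 2-fold.

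Of the 3 peroxins whose descriptions give no role, 1 was the only member called higher than the wild type in any library with TMM scaling. The integral peroxisomal membrane peroxin gene3390 had 26.3 CPM in the Dmxr1, 161 in the Dgal83 and 27.2 in the Dgcn5 library, against 32.6 in the wild type. It was 4.93-fold higher in the Dgal83 library, at log2 2.30 [2.23 to 2.38], and that library stood apart from the other 3, as 2.25% of all rows did on the high side. The rows on either side of it were also high there, at log2 1.71 for a protein of COPII-coated vesicles (gene3389) and 5.37 for a protein kinase-like row (gene3391), and the part of reads running in from gene3391 was not tested. Another integral membrane peroxin (gene2495) was at log2 -0.12, 0.50 and -0.26 in the Dmxr1, Dgal83 and Dgcn5 libraries. The peripheral membrane peroxin (gene4152) had 149, 192 and 94.5 CPM in the same libraries, against 173 in the wild type, with a log2 ratio of -0.87 in the Dgcn5 library, and was called lower there with total counts, at -1.20.

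**Figure D3:**
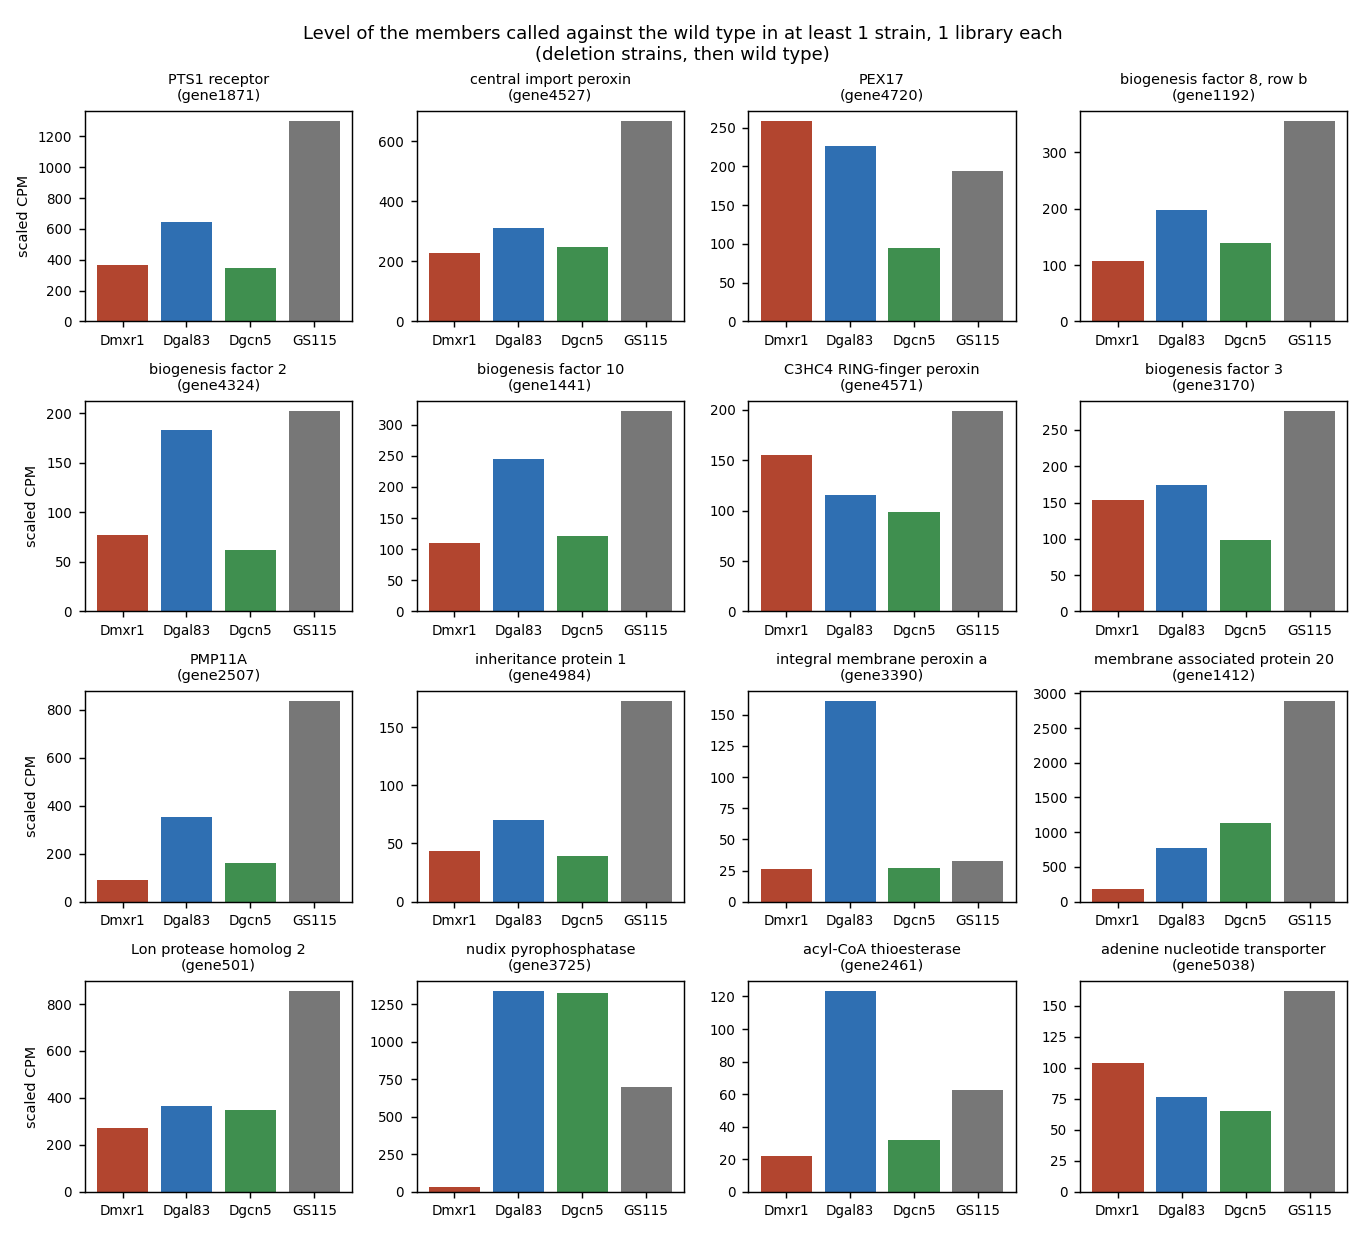
Level (TMM-scaled CPM, axis from 0) of the 16 peroxisome genes called higher or lower than the wild type in at least 1 deletion library, with 1 bar per library in the order Dmxr1, Dgal83, Dgcn5 and wild type. The wild type has the tallest bar for 12 of them. The exceptions are PEX17, gene3390, the nudix pyrophosphatase and the acyl-CoA thioesterase.

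Among the 4 enzymes and enzyme-like proteins the Dmxr1 library was lowest for each, and all 4 were called lower in it. Peroxisomal membrane associated protein 20 (gene1412), a peroxidase of the peroxiredoxin family in the methylotrophic yeast Candida boidinii, had 180 CPM in the Dmxr1, 773 in the Dgal83 and 1135 in the Dgcn5 library, against 2889 in the wild type. Its log2 ratios were -4.01 [-4.04 to -3.97], -1.90 [-1.92 to -1.88] and -1.35 [-1.37 to -1.33], and each library lay apart from the others by more than the counting intervals. Lon protease homolog 2 (gene501), which degrades and folds matrix proteins, had 270 CPM in the Dmxr1, 365 in the Dgal83 and 348 in the Dgcn5 library, against 855 in the wild type. Its ratios of -1.66, -1.23 and -1.30 were close to each other, and the wild type stood apart on the high side.

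The remaining enzymes separated the deletion strains. The nudix pyrophosphatase of coenzyme A and its derivatives (gene3725) had 35.4 CPM in the Dmxr1, 1337 in the Dgal83 and 1324 in the Dgcn5 library, against 698 in the wild type. It was 19.7-fold lower in the Dmxr1 library and 1.92-fold and 1.90-fold higher in the Dgal83 and Dgcn5 libraries, where it stayed short of 2-fold. The acyl-CoA thioesterase described as likely to act in fatty acid oxidation (gene2461) had 22.2 CPM in the Dmxr1, 123 in the Dgal83 and 31.6 in the Dgcn5 library, against 62.4 in the wild type. Its log2 ratios were -1.49 [-1.62 to -1.37], 0.98 [0.92 to 1.05] and -0.98 [-1.09 to -0.87], so the Dgal83 and Dgcn5 libraries lay on opposite sides of the wild type, both just short of the 2-fold line.

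The last 4 members were membrane transport, an unspecified membrane protein and regulators. The potential peroxisomal adenine nucleotide transporter (gene5038), of a kind that supplies ATP to the matrix, had 104 CPM in the Dmxr1, 76.4 in the Dgal83 and 64.8 in the Dgcn5 library, against 162 in the wild type. Its log2 ratios were -0.63, -1.08 and -1.32, and the rows on either side of it (gene5037 and gene5039) were at -1.44 and -1.41 in the Dgcn5 library. Peroxisomal membrane protein 4 (gene688) lay between log2 -0.02 and 0.53. The rows described as peroxisome proliferation transcriptional regulators were not called: gene2399 was at 0.75, 0.64 and 0.10 in the Dmxr1, Dgal83 and Dgcn5 libraries, and gene2420 at 0.55, -0.07 and 0.26. In Saccharomyces cerevisiae such regulators activate peroxisomal genes on fatty acids.

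The deletion strains were also set directly against each other, which leaves out the shared wild-type library. Over the Dgal83 library, the Dgcn5 library had 7 members called lower and 0 higher, where 12.8% and 12.7% of all rows were. The 7 were biogenesis factor 2 at log2 -1.56, biogenesis factor 10 at -1.01, PEX17 at -1.25, membrane protein 11A at -1.13, gene3390 at -2.56, the peripheral peroxin gene4152 at -1.03 and the thioesterase at -1.96. Against the same Dgal83 library, 7 members were called lower and 1 higher in the Dmxr1 library, with a background of 13.8% and 12.1%. The member called higher was peroxin 20, at 1.02, and the nudix pyrophosphatase was lowest, at -5.24. With total counts 13 members were called lower and 0 higher over the Dgal83 library in both comparisons. The medians of all rows then lay at -0.49 for Dgcn5 and -0.50 for Dmxr1. Shares of all rows called were computed with TMM only, so the counts under other scalings have no background. With upper-quartile factors the Dgcn5 library had 5 lower and 0 higher, and the Dmxr1 library 7 lower and 0 higher, so peroxin 20 was no longer called.

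Fewer members were called between the Dmxr1 and Dgcn5 libraries. Over the Dgcn5 library, 2 members were called lower and 2 higher in the Dmxr1 library, where 9.63% and 8.08% of all rows were. Those lower were the nudix pyrophosphatase at -5.23 and membrane associated protein 20 at -2.66, and those higher were PEX17 at 1.45 and peroxin 20 at 1.13. The median of the 31 members was 0.10. For the signal 1 receptor the ratio between these libraries was 0.10, for the central import peroxin -0.13 and for biogenesis factor 10 -0.13.

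Genes of neighbouring pathways were read from lists of descriptions. The autophagy and pexophagy list covers the route by which peroxisomes are degraded, and its 19 rows as a set did not follow the biogenesis genes. In the Dmxr1 library 6 were called higher and 1 lower, in the Dgal83 library 3 higher and 0 lower, and in the Dgcn5 library 0 higher and 1 lower, and the medians were 0.72, 0.02 and 0.12. The higher and lower shares were 31.6% and 5.26%, 15.8% and 0%, and 0% and 5.26% in that order. Of all rows they were 7.97% and 10.3%, 11.0% and 10.7%, and 4.06% and 5.04%. Autophagy-related protein 8 (gene4630), which coats the autophagosome membrane, had 615 CPM in the Dmxr1, 472 in the Dgal83 and 150 in the Dgcn5 library, against 128 in the wild type. The kinase ATG1 (gene2351) that starts autophagy was at log2 1.80, 1.38 and -0.11, while another row with an atg1 description (gene2354) was at -1.90, -0.87 and -1.23. The row described as an adapter for pexophagy and the cytoplasm-to-vacuole pathway (gene1419) was called in no library, at -0.18, -0.28 and -0.09. Autophagy-related protein 30 (gene3404) was not called either, at -0.47, -0.05 and -0.27. Of the 19 rows, 13, 11 and 12 lay above equality in the Dmxr1, Dgal83 and Dgcn5 libraries. Scaling by total counts left 2 called higher and 2 lower in the Dmxr1 library and turned the median in the Dgcn5 library to -0.21.

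The 8 rows of the beta-oxidation list took in fatty acyl-CoA synthetases as well as steps of fatty acid breakdown. Of these rows 6 were called lower in the Dmxr1 library, 0 in the Dgal83 and 2 in the Dgcn5 library. In the Dgal83 library 1 was called higher. Acyl-coenzyme A oxidase (gene1403), the first enzyme of the pathway, had 45.7 CPM in the Dmxr1, 581 in the Dgal83 and 278 in the Dgcn5 library, against 575 in the wild type. A 2-enoyl-CoA hydratase row (gene1057) was at log2 -2.04, 0.65 and -0.62, and 3-ketoacyl-CoA thiolase (gene1962) at -1.89, 0.71 and -0.23. A potential long chain fatty acyl-CoA synthetase (gene5033) was at log2 -1.59, 1.26 and -0.52. This list also took in 3-hydroxyisobutyryl-CoA hydrolase (gene3318), an enzyme of valine breakdown, at -1.14, 0.24 and -1.25. The list medians were -1.36, 0.20 and -0.50 in the Dmxr1, Dgal83 and Dgcn5 libraries.

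The cargo enzymes of the matrix, 5 rows for alcohol oxidase, dihydroxyacetone synthase and catalase, had medians of -2.53, -2.28 and -1.27 in the same order, with 5, 4 and 3 called lower and 0 higher. In the Dgal83 library 4 of the 5 rows were thus called lower, while catalase was at -0.25 and not called. The 31 peroxisome genes had a median of -0.18 there and ran from -1.90 to 2.30. The 4 carnitine rows, of acetyl transfer across organelle membranes, were all called higher in the Dmxr1 library, with a median of 5.89. Their medians were 0.16 and -0.12 in the Dgal83 and Dgcn5 libraries. The Dgal83 median covers opposite calls, with gene4293 higher at 1.57 and gene2069 lower at -1.45. The 3 rows of dynamins and organelle fission were called in no comparison with TMM, with ratios between log2 0.00 and 0.96, and 1 was called higher in the Dgal83 library with total counts.

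Protein import into mitochondria was taken as a list for another organelle. Of its 22 rows, 2 were called higher and 1 lower in the Dmxr1, 1 higher and 2 lower in the Dgal83 and 1 higher and 0 lower in the Dgcn5 library. The higher and lower shares were 9.09% and 4.55%, 4.55% and 9.09%, and 4.55% and 0% in that order. Of all rows they were 7.97% and 10.3%, 11.0% and 10.7%, and 4.06% and 5.04%. The medians were -0.12, -0.16 and 0.27 with TMM scaling and -0.47, -0.03 and -0.06 with total counts, so the sign in the Dgcn5 library turned with the scaling. The list also took in rows that are not import components by their descriptions. Among them were the ligase TOM1 (gene4320), a TOM1-like protein (gene4477), a presequence protease (gene3140) and a deubiquitinating enzyme of the outer mitochondrial membrane (gene5238).

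**Figure D4:**
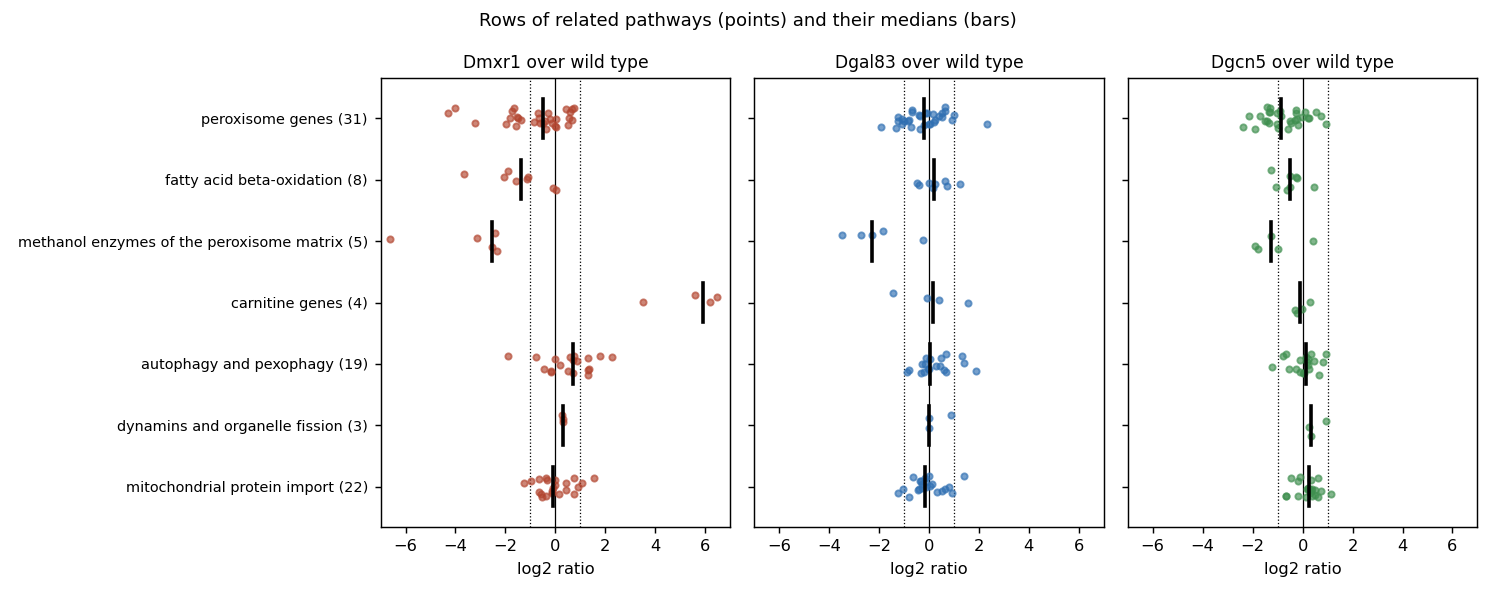
log2 ratio to the wild type of each row (points) of the 31 peroxisome genes and of 6 related lists, with black bars at the medians and 1 panel per deletion-strain library. Dotted lines mark 2-fold. The matrix enzymes lie left of equality in each panel apart from catalase in the Dgcn5 panel, and the carnitine rows lie far right in the Dmxr1 panel.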

How the data were processed

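Ribosomal RNA was removed from total RNA with a bacterial kit, per the labels' protocols, which do not give strandedness. Tools named in the submitters' processing notes, with no roles, are DESeq2, featureCounts 1.6.4, Bowtie2, fastp 0.19.6 and bcl2fastq 2.19.0.316. The genome build is not given in the sources used here. Each deposited value is a raw read count of the authors for 1 row. No locus tag (0) and no protein accession (0) matched the reference gene table, which is of another strain, so genes carry the table's descriptions and row identifiers.

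Rows averaging 20 counts or more were kept. The TMM factors (R 4.3.3, edgeR 4.0.16) were 0.862, 1.21, 0.874 and 1.10 for the Dmxr1, Dgal83, Dgcn5 and wild-type libraries. Ratios were taken over all kept rows after adding 0.5 to each count, with exact Clopper-Pearson 95% intervals. The labels name no molecular identifiers, so duplicate reads may narrow the intervals. The steps were tested on simulated data. Members and lists were chosen with earlier results of these data known. Every member may be named. Members called or standing apart are given with their level and ratio in each library, and some of them with intervals. A few rows of most lists are named, and not all of these were called. Comparisons between deletion libraries were added after the data were seen. Alternatives were total counts, upper-quartile factors, DESeq2 1.42.0 size factors, other filters, another added count and other fold thresholds. Python 3.11.15 was used.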

Additional observations from a re-analysis of the deposited data

How the results depend on the processing

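DESeq2 size factors, TMM without the 20 highest rows, keeping every row, keeping rows averaging 100 counts or more, and adding 5 to each count changed little. Every count of members stayed within 1.5 times. Every median stayed between the median lower and the median upper limit of the single members' intervals, as no interval of the median itself was computed. Total counts moved the median of all rows to -0.36 in the Dmxr1, 0.14 in the Dgal83 and -0.34 in the Dgcn5 comparison, and the members' medians with it to -0.85, -0.047 and -1.20. Higher rows then made up 18.4%, 61.1% and 15.9% of all calls, beside 43.6%, 50.6% and 44.6% with TMM, and 33.6%, 44.3% and 42.5% with upper-quartile factors. In the Dgal83 library total counts gave 3 members higher and 4 lower: the receptor gene1871, gene4527 and gene5038 were no longer called, and the nudix pyrophosphatase and the thioesterase were called higher. Members standing apart fell to 1 with total counts, beside 4 with TMM, and the 1 was PEX17. Upper-quartile factors moved the median to -0.62 in the Dmxr1 library. Of 651 ratios of single members under other settings, 0 changed sign among called genes, 3 lost a call and 9 gained one.

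A 4-fold rule left 3, 0 and 2 members lower in the Dmxr1, Dgal83 and Dgcn5 libraries. The order of the Dmxr1 and Dgcn5 libraries by members lower was thus not the same as at 2-fold. The peroxin gene3390, 4.93-fold higher in the Dgal83 library, also passed the 4-fold rule. A 1.5-fold rule gave 4, 5 and 2 higher, and 12 lower in the Dgal83 library. In the other deletion libraries the number lower stayed within 1.5 times that of the main rule. The shares of all rows at these thresholds were not computed, so these counts cannot be set against a background or ranked as a result about the members. Added after the data were seen, the 23 peroxins alone had 7 and 4 lower in the Dmxr1 and Dgal83 libraries, with a median of -0.40 in the first, and 10 lower in the Dgcn5 library. Without members beside a row called the same way, 0 were higher in the Dgal83 library. No paired analysis was possible because each strain has 1 library. Every member that reached 2-fold had an interval excluding equality, so depth set no call, and the error between cultures was not measured.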

Other observations

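Some members had a neighbouring row in the table that was called the same way. This held for 4 of the 13 members called lower in the Dgcn5 library (30.8%), which were gene4527, gene3170, gene1412 and gene5038. Among all 273 rows called lower there it held for 98, or 35.9%. In the Dmxr1 library it held for 3 of 11 members (27.3%) and for 34.3% of all rows called lower, and in the Dgal83 library for 2 of 7 (28.6%) and 40.1%. The table holds no coordinates, so rows that share reads and rows that only lie side by side cannot be told apart.

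The stretch of the table around the peroxin gene3390 was high in the Dgal83 library over 3 consecutive rows. The protein kinase-like row gene3391 had 13.5 CPM in the Dmxr1, 984 in the Dgal83 and 24.8 in the Dgcn5 library, against 23.8 in the wild type. Beyond these 3 rows, gene3388 (S-adenosylmethionine synthase) was at log2 -0.90 and gene3392 at -0.38 in the Dgal83 library.

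The rule left out 2 rows whose descriptions name peroxisomes. Peroxisomal catalase (gene1803) had 1509 CPM in the Dmxr1, 6415 in the Dgal83 and 10108 in the Dgcn5 library, against 7606 in the wild type. Carnitine acetyl-CoA transferase of mitochondria and peroxisomes (gene4293) had 27369, 927 and 388 CPM in the same libraries, against 312 in the wild type.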
